A study of Mus musculus with 16 samples.

Results

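Mouse macrophages lacking TRAP1 were set against wild-type macrophages, both kept in melanoma-conditioned medium. Raw gene counts of the 4 libraries labelled TRAP1 KO TCM were compared with those of the 3 libraries labelled WT TCM, so 7 of the 16 libraries of the series carry the comparison. All genes above the count filter entered, which were 14078 of 54532 gene identifiers. Bone marrow cells of both genotypes grew into macrophages under M-CSF, the cytokine that directs this step, at 20 ng/mL for 7 days. They were then cultured for 24 h in 70% tumor-conditioned medium (TCM), which had been exposed to cultured melanoma cells of the murine line YUMM1.7. The 3 libraries of wild-type cells without this medium (WT naive) entered the same fit. They took part in its count filter, its scaling and its estimate of spread, and so in the SEs and p-values. Apart from that they served only for levels set beside the others. The labels give neither strain, age and sex nor the way the Trap1 gene was disrupted, nor whether each replicate is its own animal or culture. The p-values therefore describe only how far these libraries spread, and that spread may be technical.

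TRAP1 is the mitochondrial member of the HSP90 family of chaperones. It sits in the matrix and inner membrane of mitochondria, binds proteins of the respiratory chain and the TCA cycle, and is best known for its influence on respiration, reactive oxygen and cell survival in tumor cells. Macrophages in tumor medium take up lipid, present antigen, secrete chemokines and remodel matrix, and much of that behavior is set by transcription. Genes are ordered by those roles here.

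Total counts were 17845920 to 20228057 in the TRAP1 KO TCM libraries and 15361604 to 19326128 in the WT TCM libraries. The first principal component of the 7 libraries held 64.0% of the variance and placed TRAP1 KO TCM at -28.0 to -26.9 and WT TCM at 35.8 to 37.4. WT TCM replicate 3 lay apart from the other WT TCM libraries on the second component, which held 8.07% of the variance (23.5, against -12.4 and -11.6). Summed over 10 markers of macrophages, levels were 30851 to 31171 CPM in the TRAP1 KO TCM libraries and 30415 to 30900.3 CPM in the WT TCM libraries, and every one of these markers was detected. The sum over 6 melanocytic markers was 0.337 to 0.500 CPM in the TRAP1 KO TCM libraries and 0.131 to 0.399 CPM in the WT TCM libraries; Tyr and Tyrp1 had 0 counts in all 7 libraries, and Dct, Mlana, Pmel and Sox10 were below the count filter. The marker sum of stromal fibroblasts was 5.39 to 7.74 CPM in the TRAP1 KO TCM libraries and 0.393 to 0.513 CPM in the WT TCM libraries, that of B cells 18.6 to 21.2 CPM in the TRAP1 KO TCM libraries and 6.87 to 9.14 CPM in the WT TCM libraries, that of erythroid and megakaryocytic cells 11.9 to 13.9 CPM in the TRAP1 KO TCM libraries and 2.74 to 4.65 CPM in the WT TCM libraries and that of endothelial cells 27.5 to 29.8 CPM in the TRAP1 KO TCM libraries and 43.8 to 47.1 CPM in the WT TCM libraries. The sum for neutrophils was 9.09 to 11.7 CPM in the TRAP1 KO TCM libraries and 10.2 to 12.4 CPM in the WT TCM libraries. In bulk RNA of this kind, fewer cells of a type and less RNA per cell cannot be told apart.

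Trap1 was nearly absent from the knockout libraries. The gene (chr16:4039971-4077827 on the minus strand of GRCm38) had 1, 1, 1 and 0 counts in the 4 TRAP1 KO TCM libraries, against 1217, 1297 and 1108 counts in the 3 WT TCM libraries. Per scaled library total, the knockout level was 0.0571% of the wild-type level, with an exact 95% counting interval of 0.0118% to 0.167%. Each library thus carried the genotype of its label. Dnase1, a secreted DNA-cutting enzyme whose gene overlaps the end of Trap1 on the other strand, had 0 counts in every TRAP1 KO TCM library, against 22, 27 and 13 counts in the WT TCM libraries. Set against a floor of 3 counts over the group, Dnase1 was at least 30.0-fold lower. Because no source used here gives the strand setting of the counting, reads of Trap1 and Dnase1 cannot be told apart where the genes overlap.

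Beyond Trap1, the change was wide but mostly small. A gene was called when its adjusted p in edgeR's quasi-likelihood test fell under 0.05 (Benjamini-Hochberg over all 14078 genes). By this rule 5944 genes differed, 42.2% of those tested, with 2990 higher and 2954 lower in TRAP1 KO TCM. The median size of a called change was only 0.28 on the log2 scale. At least 2-fold changes were called for 401 genes higher and 385 lower (5.58% of genes), and at least 4-fold changes for 121 higher and 81 lower. A stricter edgeR test against a change of 1.2-fold passed 873 genes higher and 1025 lower (13.5%). In the other direction, the 95% interval of the fold change lay wholly within 1.2-fold for 5392 genes (38.3%), of which 1726 were also called. The median log2 fold change of all genes was 0.01. All 4 TRAP1 KO TCM libraries lay above all 3 WT TCM libraries for 3066 genes and below them for 2991, 43.0% of genes in all. A share of called members near 42.2% in a gene group, 21.2% higher and 21.0% lower, is therefore the background of this comparison. Among protein-coding genes alone the called share was 46.8%, a closer background for lists of such genes. Fold changes below are TRAP1 KO TCM over WT TCM, values in parentheses after a gene are log2 fold changes, and means carry the SD over 4 and 3 libraries.

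**Figure D1:**
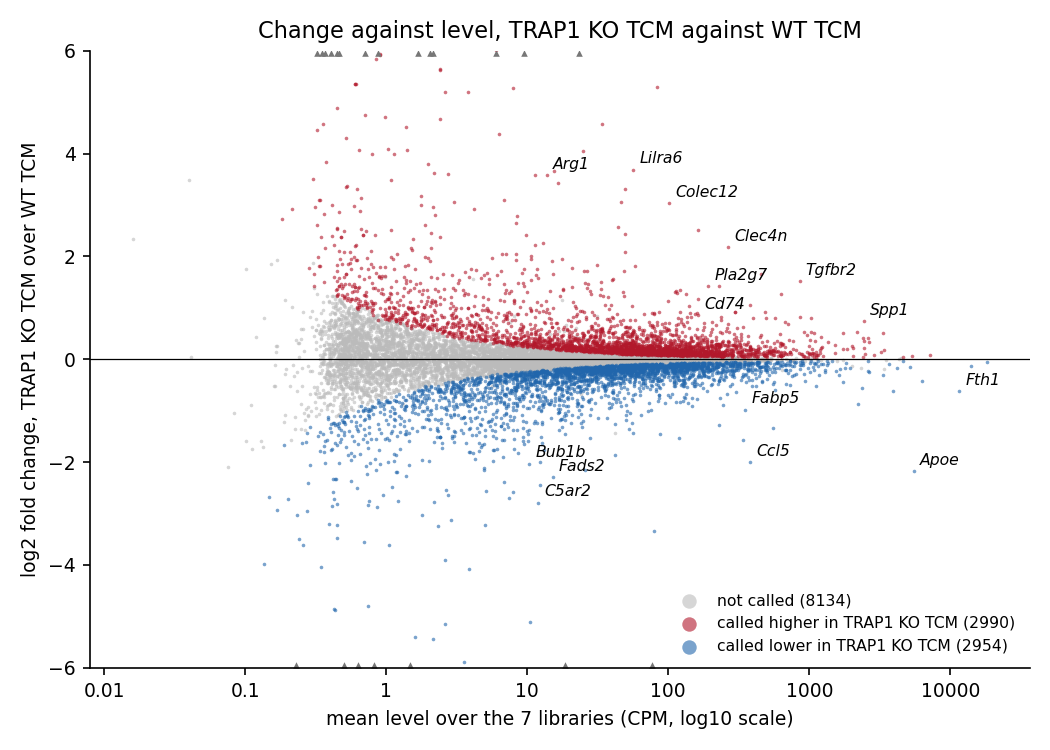
Each point is 1 of the genes tested, placed by its mean CPM over the 7 libraries (log10 axis) and its log2 fold change, TRAP1 KO TCM over WT TCM. Red points were called higher (2990) and blue points called lower (2954); 21 genes beyond a log2 value of 6 are drawn as triangles at the edge, and Trap1 is left out. Large changes sit on both sides of 0 and over a wide range of levels, with Apoe and Ccl5 among the abundant genes that fell and Clec4n and Tgfbr2 among those that rose.

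The largest rises included surface receptors and secreted proteins of macrophages. Lilra6 had 106, 81.2, 88.4 and 96.1 CPM in the TRAP1 KO TCM libraries, against 7.62, 6.73 and 7.20 CPM in the WT TCM libraries. Lilra6 is an activating receptor of the paired immunoglobulin-like family, and its knockout levels spread more than those of most genes without reaching the wild-type range. Arg1 had 21.6, 22.9, 22.1 and 24.5 CPM in the TRAP1 KO TCM libraries, against 1.72, 1.83 and 2.16 CPM in the WT TCM libraries. Arg1, the arginase that marks alternative activation, was thus low in WT TCM and moderate in TRAP1 KO TCM (log2 fold change 3.59, SE 0.16, adjusted p = 2.5e-43). Colec12 had 164, 166, 154 and 162 CPM in the TRAP1 KO TCM libraries, against 19.7, 19.5 and 19.7 CPM in the WT TCM libraries. Colec12 is a collectin that acts as a scavenger receptor (log2 fold change 3.04, SE 0.050, adjusted p = 2.2e-73). Ly6a had 252, 252, 247 and 256 CPM in the TRAP1 KO TCM libraries, against 43.5, 46.4 and 41.9 CPM in the WT TCM libraries. Ly6a encodes Sca-1, a small membrane-anchored protein. Also high in this order were Pdpn (2.44), the ligand of the platelet receptor CLEC-2, Ednrb (2.09), an endothelin receptor, Slpi (3.66), an inhibitor of serine proteases, and Cd38 (3.43), which consumes NAD. Ighm, the heavy chain of IgM and a B-cell marker, averaged 15.8 ± 1.32 CPM in TRAP1 KO TCM and 3.94 ± 0.270 CPM in WT TCM (log2 fold change 2.003, SE 0.13, adjusted p = 3.0e-27). The other B-cell markers were below the count filter or, in Cd79b, not called, and the part of B cells in the rise of Ighm was not tested.

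The largest falls covered lipid transport, complement, mitosis and chemokines. Apoe had 2187, 2279, 2217 and 2159.5 CPM in the TRAP1 KO TCM libraries, against 9839, 9989 and 10022 CPM in the WT TCM libraries. Apoe, the lipid carrier that is among the most abundant transcripts of cultured macrophages, lost the most CPM of all genes (log2 fold change -2.17, SE 0.012, adjusted p = 1.6e-79). C5ar2 had 3.17, 3.12, 4.18 and 3.03 CPM in the TRAP1 KO TCM libraries, against 25.2, 22.6 and 22.1 CPM in the WT TCM libraries. C5ar2 is the second receptor for the complement fragment C5a (log2 fold change -2.79, SE 0.11, adjusted p = 1.6e-43). Fads2 had 6.01, 5.44, 6.04 and 5.11 CPM in the TRAP1 KO TCM libraries, against 27.2, 27.1 and 29.2 CPM in the WT TCM libraries. Fads2 is the desaturase that starts the synthesis of long polyunsaturated fatty acids. Ccl5 had 163, 171, 163 and 166 CPM in the TRAP1 KO TCM libraries, against 681, 669 and 636 CPM in the WT TCM libraries. Ccl5 is a chemokine that draws T cells (log2 fold change -1.996, SE 0.020, adjusted p = 3.6e-79). Further falls of this size were Fblim1 (-3.34), an adaptor between filamin and integrin-bound kindlin, Slc13a3 (-5.10), a sodium-coupled carrier of dicarboxylates, Pttg1 (-2.45), the mitotic securin, and Ang (-2.0004), the ribonuclease angiogenin. The ribosomal protein gene Rpl29 (-7.87) fell further than these in fold change. Its value is uncertain because such genes have many processed copies. By absolute CPM the largest gains also took in Spp1 (osteopontin), which averaged 2950.5 ± 81.6 CPM in TRAP1 KO TCM and 1758 ± 20.97 CPM in WT TCM, and the endocytic adaptor Dab2, which averaged 2926 ± 21.7 CPM in TRAP1 KO TCM and 2210.1 ± 33.2 CPM in WT TCM. Among the losses was Fth1, the heavy chain of the iron store ferritin, with 9415 ± 139.7 CPM in TRAP1 KO TCM and 14469 ± 389 CPM in WT TCM. Psap, the precursor of the saposins, averaged 5495 ± 73.7 CPM in TRAP1 KO TCM and 7406 ± 24.98 CPM in WT TCM, and Gpnmb, a glycoprotein of lipid-laden macrophages, averaged 3176 ± 31.5 CPM in TRAP1 KO TCM and 4860.1 ± 71.5 CPM in WT TCM.

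**Figure D2:**
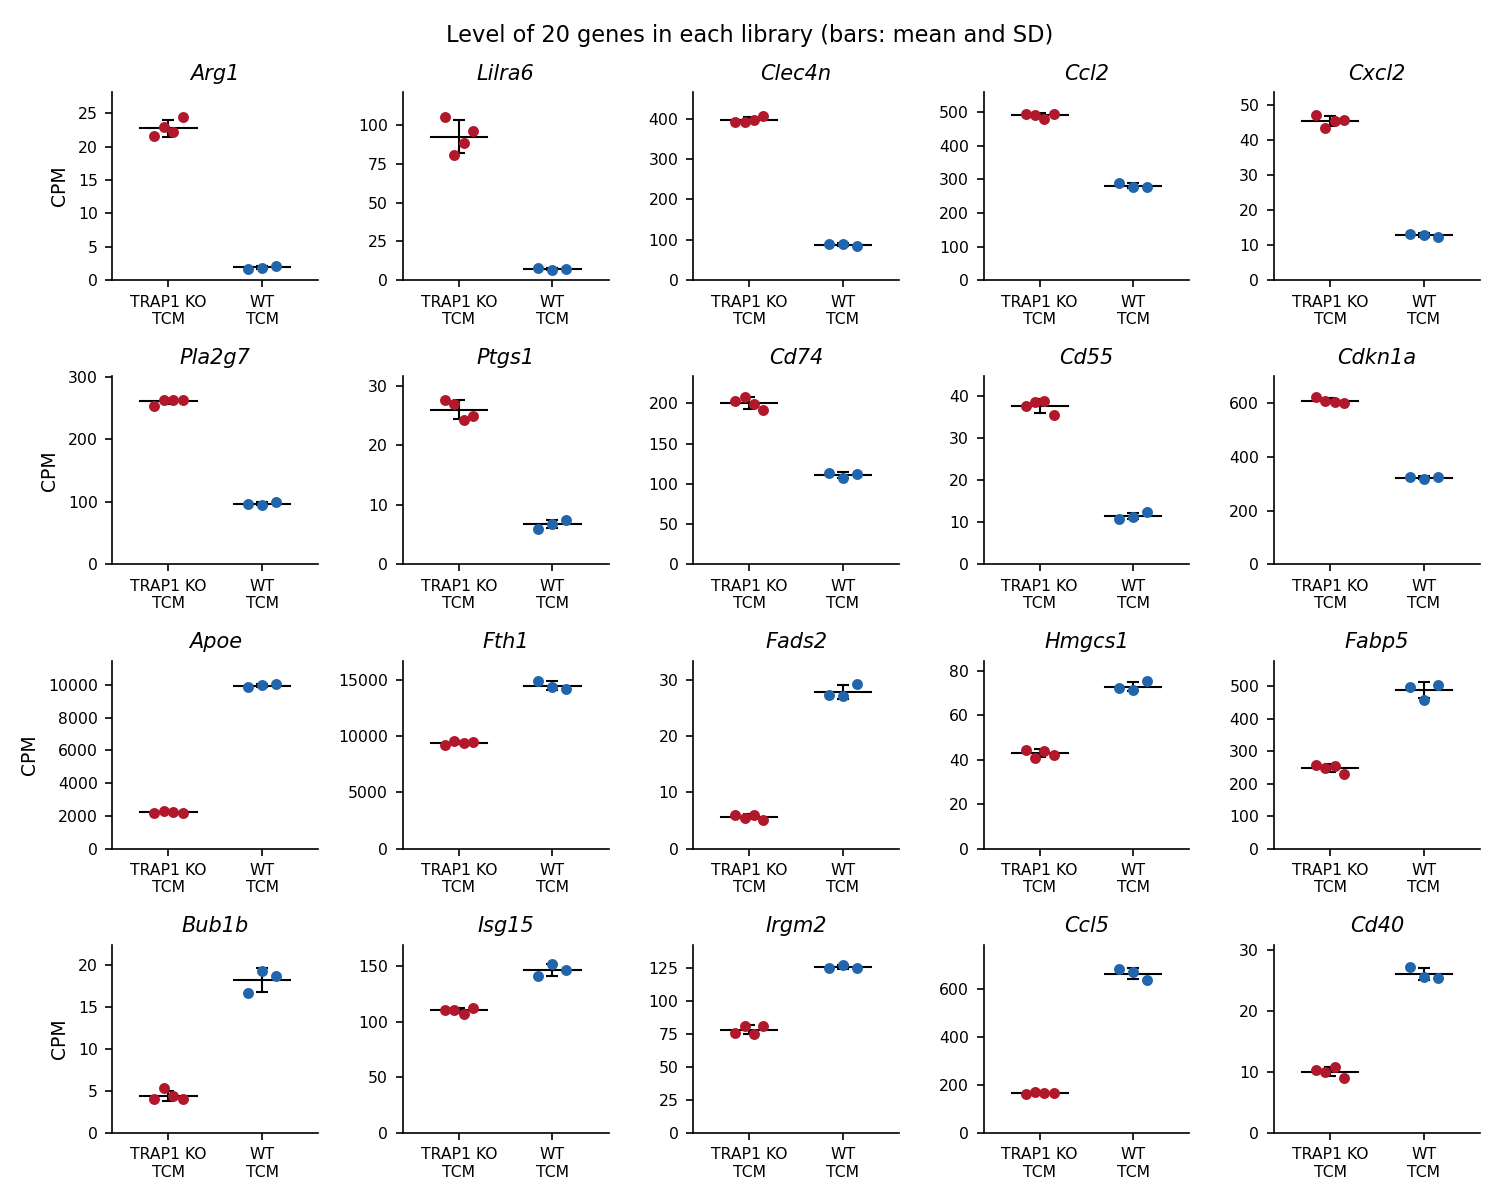
Level in CPM (linear axis from 0) of 20 genes in each library, with TRAP1 KO TCM (4 red points) left of WT TCM (3 blue points); lines and bars are mean and SD. In all 20 genes the red and blue points do not overlap, and the spread within a group is small beside the gap in most panels. The genes were chosen with their values known, and the groups did not overlap in 43.0% of all genes tested.

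Proliferation genes were lower as a group. Of 30 genes of mitosis and G2/M, all 30 were called lower, 22 of them by at least 2-fold, with a median log2 fold change of -1.36, beside 0.01 over all genes. Bub1b had 4.06, 5.29, 4.44 and 3.98 CPM in the TRAP1 KO TCM libraries, against 16.7, 19.3 and 18.7 CPM in the WT TCM libraries. Bub1b encodes BUBR1 of the spindle checkpoint (log2 fold change -2.03, SE 0.11, adjusted p = 5.1e-32). Ube2c had 3.003, 3.51, 2.94 and 2.81 CPM in the TRAP1 KO TCM libraries, against 9.97, 12.5 and 12.4 CPM in the WT TCM libraries. Ube2c is the ubiquitin-conjugating enzyme of the anaphase-promoting complex (log2 fold change -1.91, SE 0.13, adjusted p = 5.3e-25). The list also held the cyclins Ccnb2 (-1.77), Ccnb1 (-1.55) and Ccna2 (-1.50), the kinases Plk1 (-1.53) and Aurkb (-1.45), the motor Kif11 (-1.63) and the transcription factor Foxm1 (-1.58) that drives many of these genes. Cdk1 (-0.62), the mitotic kinase, and Smc2 (-0.53), a condensin subunit, changed least. The 30 genes of DNA replication were all called lower too, but less far, with a median of -0.47 and only Rrm2 at 2-fold or more. Rrm2 had 10.1, 10.98, 10.1 and 11.8 CPM in the TRAP1 KO TCM libraries, against 25.9, 26.2 and 27.9 CPM in the WT TCM libraries. Rrm2 is the regulated subunit of ribonucleotide reductase (log2 fold change -1.31, SE 0.077, adjusted p = 6.4e-28). Tk1 (-0.98) (thymidine kinase), Cdc45 (-0.85) (replicative helicase) and E2f2 (-0.72) followed, and E2f1 (-0.13) changed least, with a call that was lost without WT TCM replicate 2. Of the core histone and linker genes only 8 of 70 passed the count filter, with 1 higher and 2 lower.

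Pcna, the sliding clamp of replication, needs a separate account. The gene averaged 179 ± 2.27 CPM in TRAP1 KO TCM and 331 ± 3.81 CPM in WT TCM (log2 fold change -0.89, SE 0.021, adjusted p = 7.0e-57), while its processed pseudogene Pcna-ps2 averaged 57.8 ± 1.70 CPM in TRAP1 KO TCM and 2.45 ± 0.429 CPM in WT TCM. Summed, Pcna and Pcna-ps2 had 237, 236, 235 and 238 CPM in the TRAP1 KO TCM libraries, against 336, 329 and 336 CPM in the WT TCM libraries. The sum was thus lower in every knockout library, by less than Pcna alone. How reads shared by a gene and its near-identical copy were assigned is not stated in the labels, so both values are uncertain.

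The joint list of cell-cycle inhibitors and p53 targets moved mostly the other way, but the inhibitors themselves divided. Of 23 such genes 14 were called higher and 7 lower, with a median of 0.31. Cdkn1a had 622, 609, 603 and 602 CPM in the TRAP1 KO TCM libraries, against 326, 317 and 325 CPM in the WT TCM libraries. Cdkn1a encodes p21, the p53-driven inhibitor of cyclin-dependent kinases, and it was high in every knockout library (log2 fold change 0.915, SE 0.018, adjusted p = 4.6e-62). Zmat3 had 156, 148, 148 and 153 CPM in the TRAP1 KO TCM libraries, against 59.8, 58.8 and 63.3 CPM in the WT TCM libraries. Zmat3 is an RNA-binding p53 target (log2 fold change 1.32, SE 0.035, adjusted p = 7.9e-54). Cdkn2b had 8.23, 8.76, 9.03 and 7.18 CPM in the TRAP1 KO TCM libraries, against 2.24, 2.28 and 1.77 CPM in the WT TCM libraries. Cdkn2b encodes the inhibitor p15 and was higher in every knockout library (log2 fold change 1.97, SE 0.17, adjusted p = 2.4e-20). Other p53 targets that rose were Phlda3 (1.23), Ccng1 (0.61), Mdm2 (0.58) and Bax (0.26), and Trp53 (0.55) itself rose. Among the falls were Cdkn2c (-1.16) (p18), Cdkn2d (-0.69) (p19) and Gadd45a (-0.73), also a p53 target. The inhibitors Cdkn1b and Cdkn1c and the gene Rb1 were called lower too. Pmaip1 and Sesn1, further p53 targets, were not called. Myc was not called either, with 22.5 ± 1.74 CPM in TRAP1 KO TCM and 24.3 ± 0.934 CPM in WT TCM.

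**Figure D3:**
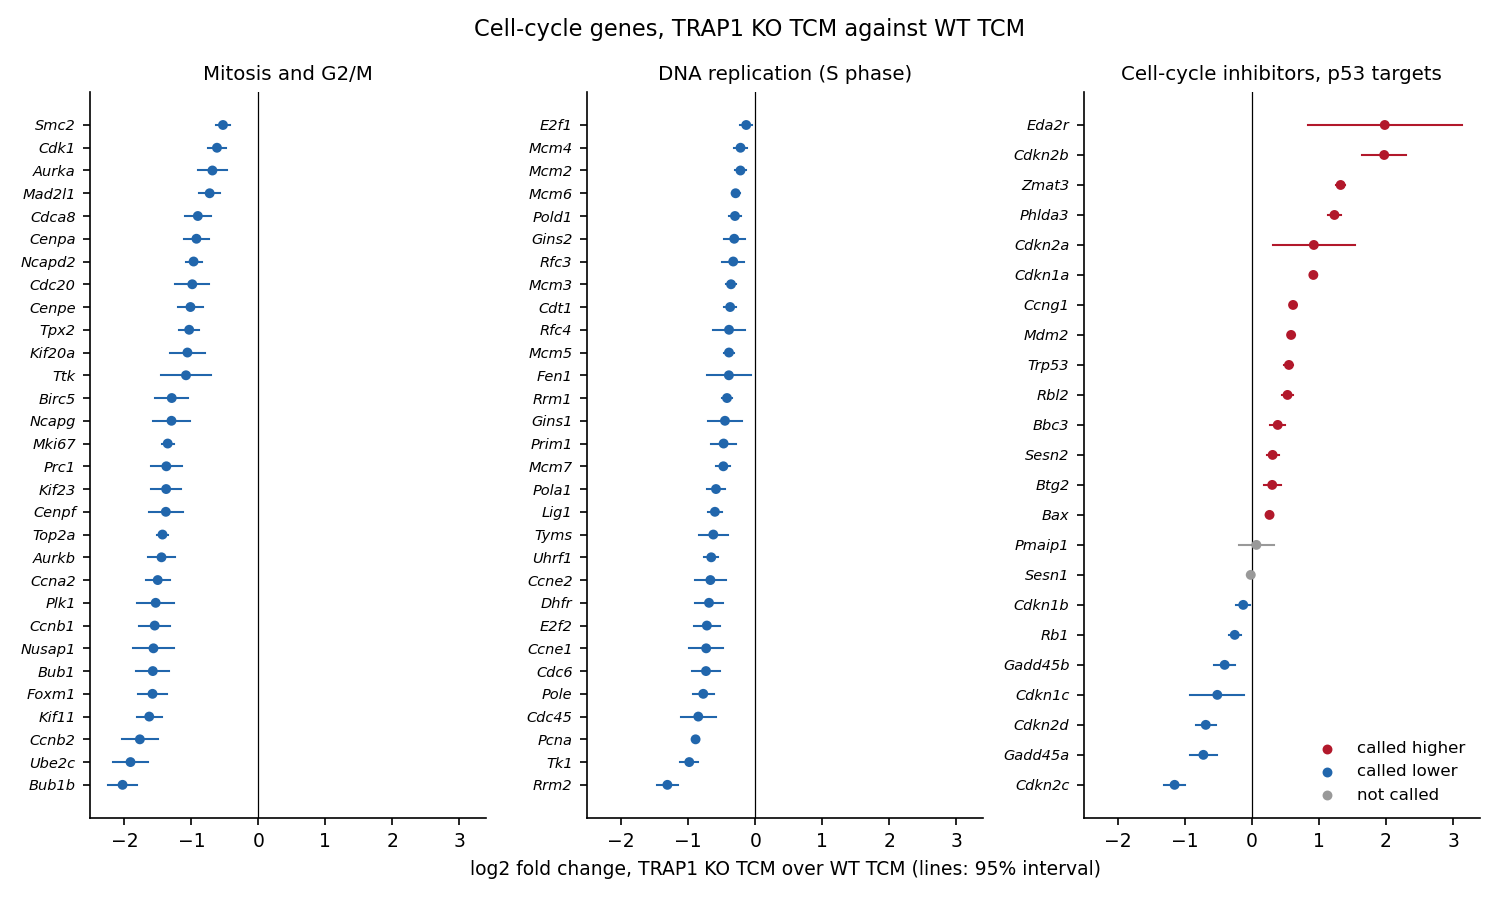
Log2 fold change, TRAP1 KO TCM over WT TCM, of the members of 3 lists, with 95% intervals as lines (red called higher, blue called lower, grey not called). All 30 mitosis and all 30 replication genes lie left of 0. Of 23 inhibitors and p53 targets 14 were called higher and 7 lower.

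Promoters of the mitosis genes shared short motifs that the choice of the list did not use. The letters TTTGAA (the CHR element, read on both strands, so also TTCAAA) stood in the 300-base window from 250 bases before to 50 after the start of 19 of the 25 mitosis genes with a RefSeq window (76.0%), against 14.6% of the 9805 genes tested that have one and 20.2% of all 27025 genes with one. CCAAT, also on both strands able to share at most 1 base with the first motif, stood in 22 of the 25 (88.0%), against 42.9% of genes tested and 41.1% of all genes. TTTCCCGC, a form of the E2F site, searched on both strands, stood in 5 of 24 replication genes (20.8%), against 2.47% of genes tested. Such a match is a description of the letters and not a measured binding site. To show how the elements lie beside each other, the 150 bases before the start site of 4 mitosis genes follow in the direction of transcription (RefSeq, GRCm38.p6), with TTTGAA and CCAAT in either orientation in capitals. Cdc20 (chr4:118437344-118437493, minus strand) activates the anaphase-promoting complex, Cdk1 (chr10:69352913-69353062, minus strand) is the mitotic kinase, Top2a (chr11:99024190-99024339, minus strand) untangles DNA, and Ube2c (chr2:164769779-164769928) is on the plus strand.
Cdc20: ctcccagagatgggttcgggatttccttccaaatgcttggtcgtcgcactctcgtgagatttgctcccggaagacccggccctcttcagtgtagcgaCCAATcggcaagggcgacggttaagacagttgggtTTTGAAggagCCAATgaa
Cdk1: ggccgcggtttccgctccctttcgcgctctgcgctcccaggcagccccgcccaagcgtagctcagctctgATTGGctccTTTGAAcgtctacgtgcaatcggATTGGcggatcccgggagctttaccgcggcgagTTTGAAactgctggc
Top2a: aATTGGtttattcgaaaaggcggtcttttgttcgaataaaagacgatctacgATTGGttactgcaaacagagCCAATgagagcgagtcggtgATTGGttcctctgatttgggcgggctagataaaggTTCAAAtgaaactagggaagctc
Ube2c: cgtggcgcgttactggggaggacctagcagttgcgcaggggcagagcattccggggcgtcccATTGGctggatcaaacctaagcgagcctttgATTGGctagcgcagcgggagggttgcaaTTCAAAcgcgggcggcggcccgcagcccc

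Genes of sterol synthesis were mostly lower. Of 26 tested genes of the pathway and its regulator SREBP2, 23 were called lower and none higher, with a median of -0.74. The 3 not called were Insig2 (0.09), Ebp (-0.07) and Scap (0.09), and Insig2 was called higher without WT TCM replicate 3. Hmgcs1 had 44.5, 40.7, 44.1 and 42.0 CPM in the TRAP1 KO TCM libraries, against 72.2, 71.1 and 75.2 CPM in the WT TCM libraries. Hmgcs1 makes the first committed precursor of the pathway, and its groups stood well apart (log2 fold change -0.77, SE 0.042, adjusted p = 8.5e-30). Fdft1 had 16.8, 15.1, 17.1 and 16.7 CPM in the TRAP1 KO TCM libraries, against 34.4, 34.9 and 34.3 CPM in the WT TCM libraries. Fdft1, squalene synthase, had the largest fall of the list (log2 fold change -1.07, SE 0.066, adjusted p = 2.2e-26). Sqle (-0.90) and Idi1 (-0.88) fell as well. Of 19 sterol genes with a promoter window, 17 held CCAAT (89.5%). The SREBP-type motif TCACNCCAC, on either strand, stood in 1 of the 19, Hmgcs1, and in 1.42% of genes tested. The 150 bases before the start of Hmgcs1 (chr13:119690201-119690350, plus strand, RefSeq, GRCm38.p6) are shown with that motif in capitals.
Hmgcs1: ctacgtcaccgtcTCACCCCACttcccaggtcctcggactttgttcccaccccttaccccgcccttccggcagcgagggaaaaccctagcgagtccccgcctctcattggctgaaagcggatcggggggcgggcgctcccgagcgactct

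Fatty acid synthesis and desaturation genes were mostly lower. Of 21 genes 12 were called lower and 4 higher. Scd2 had 169, 185, 185 and 193 CPM in the TRAP1 KO TCM libraries, against 557, 533 and 546 CPM in the WT TCM libraries. Scd2, with Scd1 (-2.70) a stearoyl-CoA desaturase, lost most of its transcript (log2 fold change -1.58, SE 0.029, adjusted p = 9.7e-23). Fads1 (-0.52), Fasn (-0.47) and Acaca (-0.55), the desaturase, fatty acid synthase and acetyl-CoA carboxylase of the same route, fell by less. Acacb (1.99), the mitochondrial form of acetyl-CoA carboxylase, was called higher at a low level. Genes of lipid efflux and storage under the receptor LXR held 12 lower and 2 higher of 19, and beside Apoe these included Abcg1 (-0.52), a cholesterol exporter, and Lpcat3 (-0.45). Ch25h (0.93), which makes an oxysterol, was called higher.

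The genes that mark lipid-associated macrophages under the receptor TREM2 were mostly lower. Of 20 genes 14 were called lower and 4 higher, with a median of -0.21. Fabp5 had 256, 249.7, 256 and 228 CPM in the TRAP1 KO TCM libraries, against 499, 459 and 505 CPM in the WT TCM libraries. Fabp5 carries fatty acids in the cytosol (log2 fold change -0.98, SE 0.050, adjusted p = 9.2e-07). Lgals3 had 1639.9, 1656, 1591 and 1674 CPM in the TRAP1 KO TCM libraries, against 2952, 3017 and 2990.0 CPM in the WT TCM libraries. Lgals3 encodes galectin-3 and was below the wild-type range in every knockout library (log2 fold change -0.86, SE 0.013, adjusted p = 7.6e-68). Itgax had 13.01, 15.9, 16.04 and 16.2 CPM in the TRAP1 KO TCM libraries, against 42.4, 41.8 and 48.3 CPM in the WT TCM libraries. Itgax, the integrin CD11c, had the largest fall of the list after Apoe (log2 fold change -1.53, SE 0.064, adjusted p = 5.4e-37). Fabp4 (-1.03), Cst7 (-0.74) and Clec7a (-0.42) (dectin-1) fell too, while Spp1 (0.75) and Ctsl (0.35) rose. Trem2 itself fell by only 0.09 on the log2 scale, within 1.2-fold.

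**Figure D4:**
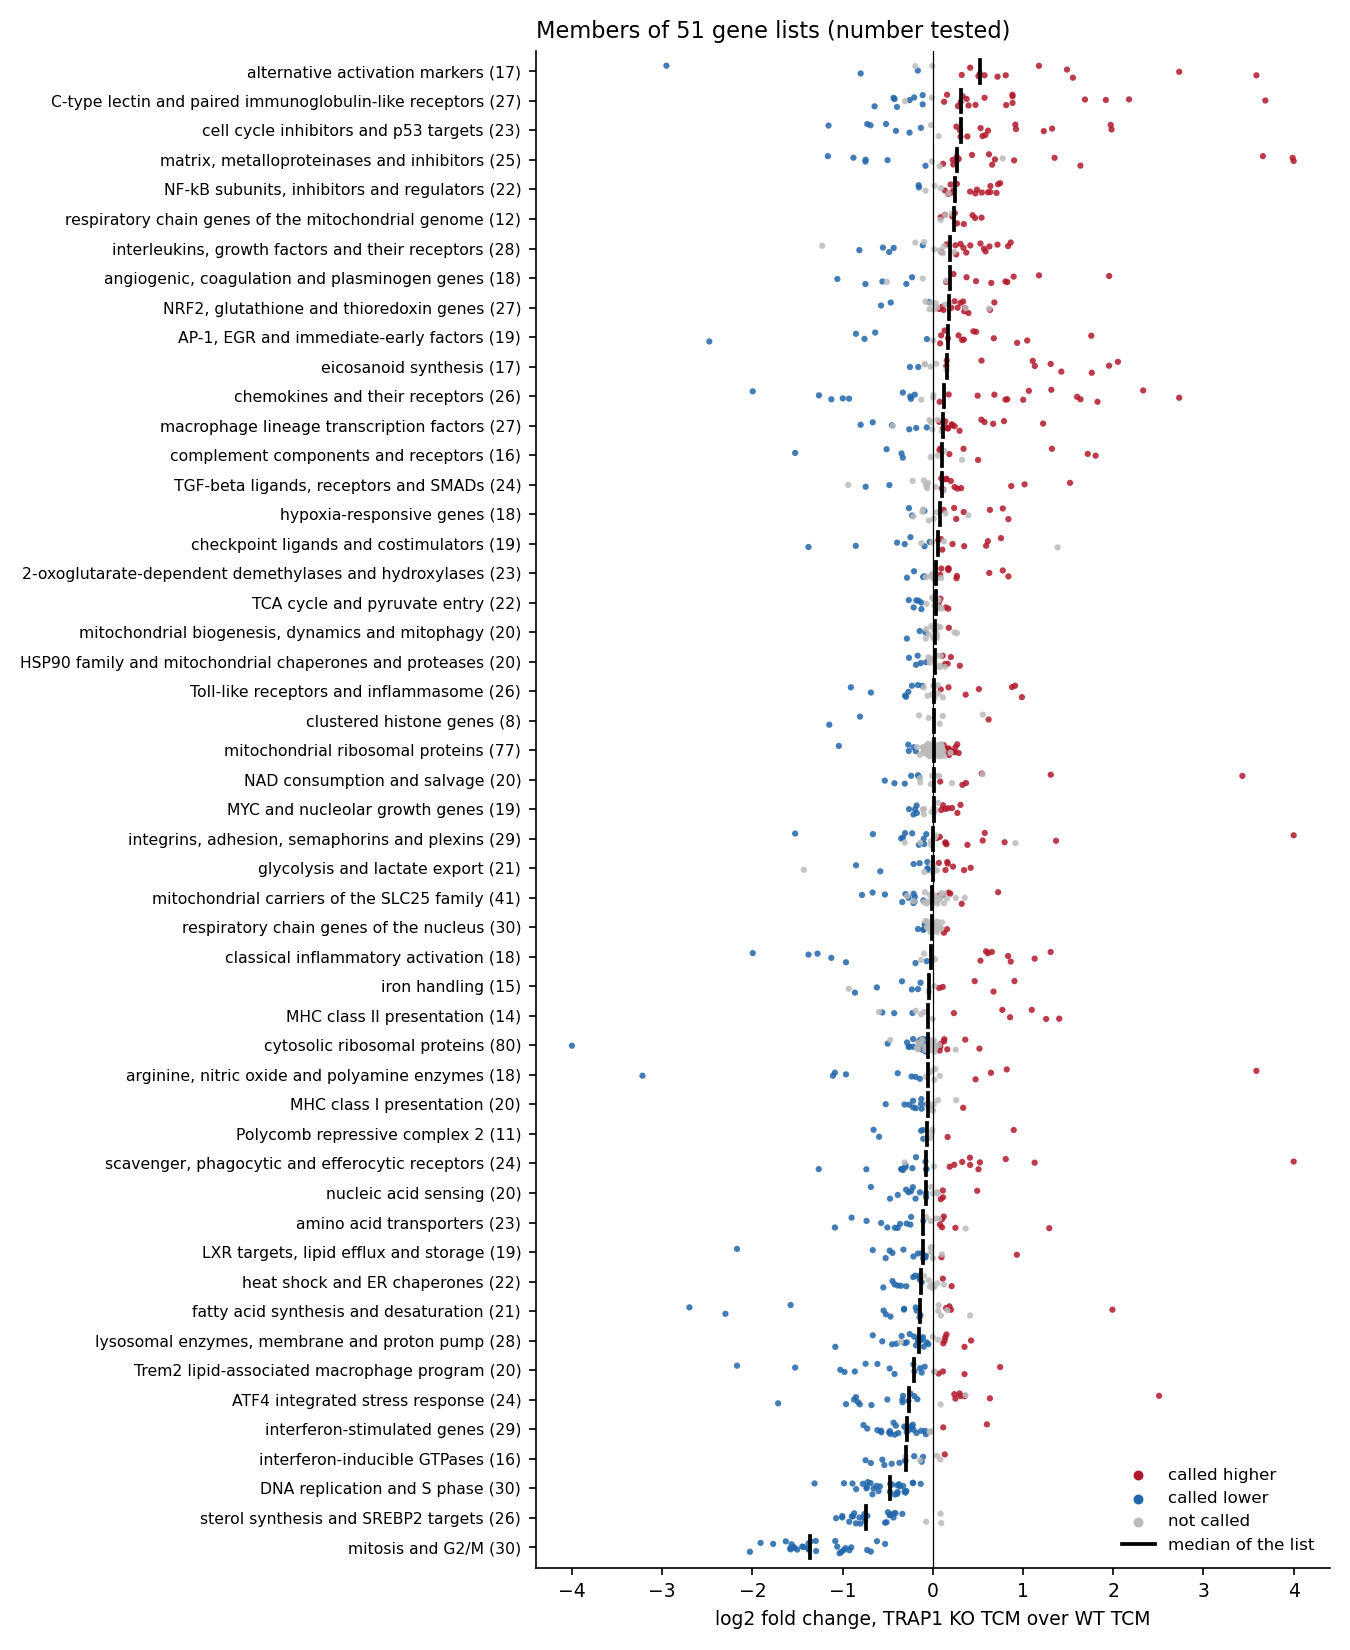
Log2 fold change, TRAP1 KO TCM over WT TCM, of every tested member of 51 gene lists, sorted by median (black bar), with the number tested in brackets. Red members were called higher, blue lower and grey not called, and 4 members beyond a log2 value of 4 are drawn at the edge. Mitosis, sterol synthesis and replication lie lowest, and alternative activation highest.

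Interferon-stimulated genes were moderately lower. Of 29 tested, 24 were called lower and 2 higher, with a median of -0.29 and none at 2-fold. Isg15 had 110.4, 111, 107 and 112 CPM in the TRAP1 KO TCM libraries, against 141, 152 and 146 CPM in the WT TCM libraries. Isg15 is a ubiquitin-like protein induced by type I interferon (log2 fold change -0.41, SE 0.029, adjusted p = 1.3e-22). Rsad2 (-0.77) (viperin), Cmpk2 (-0.73), Isg20 (-0.61) and Ifi44 (-0.57) fell furthest. Xaf1 (0.60), a pro-apoptotic interferon gene, and Bst2 (0.12) (tetherin) were the 2 called higher. Of 16 interferon-inducible GTPases 11 were called lower and 1, Gbp7, higher, and the call of Gbp7 was lost without WT TCM replicate 1 or TRAP1 KO TCM replicate 2. Irgm2 had 75.8, 80.9, 75.2 and 81.4 CPM in the TRAP1 KO TCM libraries, against 126, 127 and 125 CPM in the WT TCM libraries. Irgm2 belongs to the GTPases that guard vacuoles against microbes (log2 fold change -0.69, SE 0.032, adjusted p = 2.4e-34). Sensors of nucleic acids held 12 lower and 4 higher of 20, with Tlr9 (-0.69) and Zbp1 (-0.47) lower and Ikbke (0.49), a kinase downstream of them, higher. The interferon-response motif, GAAA, then any 2 bases, then GAAA, searched on both strands, stood in the promoter windows of 12 of 23 interferon-stimulated genes (52.2%), against 4.01% of genes tested. It is shown in capitals, in either orientation, in the 150 bases before the start of Isg15 (chr4:156200819-156200968) and Rsad2 (chr12:26456453-26456602), both on the minus strand (RefSeq, GRCm38.p6). In Isg15, 3 matches overlap.
Isg15: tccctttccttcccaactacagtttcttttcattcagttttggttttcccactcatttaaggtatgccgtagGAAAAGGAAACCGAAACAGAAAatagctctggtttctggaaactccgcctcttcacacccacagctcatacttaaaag
Rsad2: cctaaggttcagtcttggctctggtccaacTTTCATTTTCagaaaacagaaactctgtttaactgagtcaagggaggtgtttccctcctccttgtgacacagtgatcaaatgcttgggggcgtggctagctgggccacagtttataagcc

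Genes of antigen presentation changed in part, and the medians of the class II list (-0.05) and the class I list (-0.06) lay near 0. The classical class II chains and their partner rose. Cd74 had 203, 207, 199.7 and 191 CPM in the TRAP1 KO TCM libraries, against 114, 107 and 112 CPM in the WT TCM libraries. Cd74 is the invariant chain that guides class II molecules (log2 fold change 0.86, SE 0.028, adjusted p = 4.8e-46). H2-Eb1 had 28.8, 28.5, 29.3 and 26.3 CPM in the TRAP1 KO TCM libraries, against 9.71, 10.4 and 12.2 CPM in the WT TCM libraries. H2-Eb1 and H2-Aa (1.26) and H2-Ab1 (0.77) are the chains that bind peptide. Ciita, the master activator of the class II genes, was low, with 1.03 ± 0.341 CPM in TRAP1 KO TCM and 0.468 ± 0.186 CPM in WT TCM, and it was called higher although the libraries of the groups overlapped (log2 fold change 1.097, SE 0.39, adjusted p = 0.013). The call of Ciita was lost without WT TCM replicate 2 or 3 or TRAP1 KO TCM replicate 2. The accessory genes H2-DMa (-0.43) and H2-DMb1 (-0.23), which load peptide, and Ctss (-0.56), the protease that trims the invariant chain, fell. In all, 6 of 14 class II genes were called higher and 3 lower. Class I genes held 11 lower and 1 higher of 20, with 13 within 1.2-fold, and Nlrc5 (their activator) was among those that fell (log2 fold change -0.52, SE 0.032, adjusted p = 1.4e-26). The abundant class I heavy chain H2-K1 was not called and lay within 1.2-fold, with 3484 ± 29.4 CPM in TRAP1 KO TCM and 3495 ± 36.1 CPM in WT TCM. Costimulators divided as well. Cd40 had 10.3, 10.04, 10.8 and 8.98 CPM in the TRAP1 KO TCM libraries, against 27.2, 25.6 and 25.5 CPM in the WT TCM libraries. Cd40, which receives help from T cells, fell (log2 fold change -1.38, SE 0.075, adjusted p = 4.6e-30), as did Havcr2 (-0.85) (TIM-3) and Cd274 (-0.25) (PD-L1). Cd86 (0.61), Cd80 (0.59) and Tnfsf14 (0.76) (LIGHT) rose.

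Most tested markers of alternative activation rose, and markers of classical activation divided. Of 17 tested alternative markers 12 were called higher and 3 lower, with a median of 0.52. Clec10a had 55.9, 59.5, 55.8 and 55.6 CPM in the TRAP1 KO TCM libraries, against 19.9, 19.2 and 18.9 CPM in the WT TCM libraries. Clec10a and Mgl2 (1.49) are galactose-binding lectins of macrophages (log2 fold change 1.55, SE 0.061, adjusted p = 1.3e-40). F13a1 had 213, 217, 214 and 204 CPM in the TRAP1 KO TCM libraries, against 93.8, 92.1 and 95.8 CPM in the WT TCM libraries. F13a1 is a subunit of coagulation factor XIII (log2 fold change 1.18, SE 0.030, adjusted p = 5.1e-54). Cd163 (0.52), the haemoglobin scavenger, and Klf4 (0.57) rose, and Pparg (-0.80) fell. Chil3 fell too, at levels under 1 CPM (log2 fold change -2.95, SE 0.70, adjusted p = 5.4e-06). It did not pass the count filter with the 7 libraries of the 2 groups alone. Chil3, 1 of the 3 called lower, thus entered the test only with the WT naive libraries in the fit. Of 18 classical markers 8 were called higher and 7 lower. Marco (1.13), Acod1 (0.65), the source of itaconate, Tnf (0.53) and Il1b (0.83) were higher, while Cxcl9 (-1.12) was lower. Il10, often used as a marker of the regulatory state, was not called, with 3.54 ± 0.604 CPM in TRAP1 KO TCM and 4.07 ± 0.454 CPM in WT TCM. Around arginase, Odc1 (0.82), the first enzyme of polyamine synthesis, and Ass1 (0.64) were higher, and the arginine carriers Slc7a1 (-0.39) and Slc7a2 (-1.09) and the arginine deiminases Padi4 (-3.22) and Padi2 (-1.11) were lower. Bst1 had 63.9, 64.2, 64.5 and 65.6 CPM in the TRAP1 KO TCM libraries, against 26.1, 25.2 and 27.03 CPM in the WT TCM libraries. Bst1, like Cd38 a consumer of NAD, rose (log2 fold change 1.31, SE 0.051, adjusted p = 9.5e-41).

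Chemokine genes changed in both directions, with Ccl2, Ccl7, Ccl12 and Cxcl2 higher and Ccl5 and Cxcl9 lower. Of 26 chemokine and receptor genes 14 were called higher and 9 lower, with 8 and 3 at 2-fold or more. Ccl2 had 496, 494, 482 and 497 CPM in the TRAP1 KO TCM libraries, against 289, 278 and 277 CPM in the WT TCM libraries. Ccl7 had 477, 477, 489 and 519 CPM in the TRAP1 KO TCM libraries, against 237, 233 and 233 CPM in the WT TCM libraries. Ccl12 had 151, 152, 147 and 153 CPM in the TRAP1 KO TCM libraries, against 62.3, 61.5 and 57.9 CPM in the WT TCM libraries. These 3 ligands of the receptor CCR2 draw monocytes, and each was higher in all knockout libraries. Ccr2 itself was higher (log2 fold change 0.68, SE 0.030, adjusted p = 7.1e-36). Cxcl2 had 47.2, 43.5, 45.6 and 45.7 CPM in the TRAP1 KO TCM libraries, against 13.3, 12.9 and 12.2 CPM in the WT TCM libraries. Cxcl2, with Cxcl1 (1.5997) and Cxcl3 (2.33) at lower levels, draws neutrophils (log2 fold change 1.83, SE 0.076, adjusted p = 3.3e-38). Pf4 (0.83) and Ccl8 (1.64) rose as well. Beside Ccl5, Cxcl9 (-1.12), Cxcr4 (-0.998), Ccr3 (-0.93) and Cx3cr1 (-1.26) fell, and C5ar1 (-0.33), Cxcl14 (-0.25), Ccl3 (-0.24) and Ccl6 (-0.20) fell by less. Ccl4 (0.006), Cxcl10 (-0.13) and Cxcl16 (0.007) were not called. Of the erythroid and megakaryocytic markers 2 were tested, and both were called higher. They were Ppbp, a chemokine gene (log2 fold change 1.93, SE 0.14, adjusted p = 4.9e-23), and Itga2b (1.17). The part of such cells in the rise of Pf4 was not tested.

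The NF-kB system was higher as a list but by small steps. Of 22 genes 16 were called higher and 2 lower, with a median of 0.25 and none at 2-fold. Without WT TCM replicate 2 or TRAP1 KO TCM replicate 2, only 1 of the 2, Ikbkb, was called lower. Nfkbia had 115, 107, 116 and 117 CPM in the TRAP1 KO TCM libraries, against 70.5, 68.2 and 70.6 CPM in the WT TCM libraries. Nfkbia encodes the inhibitor that NF-kB itself induces (log2 fold change 0.71, SE 0.035, adjusted p = 6.7e-33). The subunits Nfkb2 (0.64) and Relb (0.54) rose more than Rela (0.21) and Nfkb1 (0.20), and Rel (-0.15) fell. Traf1 (0.75), Birc3 (0.72) and Tnfaip3 (0.49) are further targets that rose. Of the receptors upstream, Tlr2 had 153, 147, 147 and 157 CPM in the TRAP1 KO TCM libraries, against 80.3, 82.3 and 77.6 CPM in the WT TCM libraries. Cd14, the co-receptor for lipopolysaccharide, averaged 1238 ± 32.0 CPM in TRAP1 KO TCM and 869 ± 10.9 CPM in WT TCM, whereas the adaptor Myd88 (0.02) was not called. Tlr5 (0.88) and Mefv (0.99) (pyrin) rose, while Tlr1, Ticam1 and Irak4 were called lower, and Nlrp1b (-0.91) fell. The Toll-like receptor and inflammasome list divided, with 7 of 26 called higher and 8 lower. Nlrp1b was the 1 called gene of 5 tested genes known to differ between mouse strains, and the sum over that list was 91.4 to 101 CPM in the TRAP1 KO TCM libraries and 119 to 125 CPM in the WT TCM libraries. The part of strain in this comparison was not tested. Immediate-early factors held 13 higher and 5 lower of 19. Ier3 (1.05), Fosl2 (0.68) and Batf (0.94) rose. Atf3 had 66.7, 69.4, 69.9 and 76.7 CPM in the TRAP1 KO TCM libraries, against 133, 123 and 127 CPM in the WT TCM libraries. Atf3, a stress-induced repressor, was below the wild-type range in each knockout library (log2 fold change -0.85, SE 0.033, adjusted p = 6.3e-36), and Batf3 (-2.48) fell.

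Genes around prostaglandins, leukotrienes and related lipids rose strongly in part. The list holds enzymes of synthesis and breakdown and some receptors, so its counts are not of synthesis alone. Of 17 tested 10 were called higher and 2 lower, and 7 of those higher by at least 2-fold, although the median of the list was 0.15. Pla2g7 had 254, 263, 264 and 263 CPM in the TRAP1 KO TCM libraries, against 96.6, 95.3 and 99.95 CPM in the WT TCM libraries. Pla2g7 breaks down platelet-activating factor (log2 fold change 1.42, SE 0.029, adjusted p = 3.0e-62). Ptgs1 had 27.6, 26.9, 24.3 and 24.9 CPM in the TRAP1 KO TCM libraries, against 6.003, 6.79 and 7.40 CPM in the WT TCM libraries. Ptgs1 is cyclooxygenase 1 (log2 fold change 1.95, SE 0.10, adjusted p = 3.9e-32). Alox5 had 8.79, 9.99, 8.93 and 11.4 CPM in the TRAP1 KO TCM libraries, against 3.29, 2.11 and 1.51 CPM in the WT TCM libraries. Alox5, 5-lipoxygenase, opens the leukotriene route (log2 fold change 2.05, SE 0.18, adjusted p = 1.6e-18). Ptges (1.13), a prostaglandin E synthase, Hpgd (1.76), which inactivates prostaglandins, and Ephx1 (1.11) rose too. Ptgs2, cyclooxygenase 2, rose at a low level, with 1.92 ± 0.0925 CPM in TRAP1 KO TCM and 0.787 ± 0.238 CPM in WT TCM. Hpgds (-0.25) and Tbxas1 (-0.16), the synthases of prostaglandin D and thromboxane, fell.

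Pattern-recognition lectins and paired receptors were among the groups with most rises. Of 27 tested 17 were called higher and 8 lower, with a median of 0.31. Clec4n had 392, 392, 398 and 408 CPM in the TRAP1 KO TCM libraries, against 90.5, 89.8 and 83.5 CPM in the WT TCM libraries. Clec4n encodes dectin-2, a receptor for fungal mannans (log2 fold change 2.17, SE 0.028, adjusted p = 4.0e-77). Trem1 had 22.5, 19.5, 21.5 and 23.4 CPM in the TRAP1 KO TCM libraries, against 5.53, 5.88 and 5.83 CPM in the WT TCM libraries. Trem1 amplifies inflammatory signals (log2 fold change 1.92, SE 0.11, adjusted p = 4.2e-30). Clec4e (0.88) (Mincle), Pira2 (0.88) and Lilra5 (1.69) rose, whereas Pirb (-0.43), the inhibitory partner of the activating PIR receptors, Siglece (-0.65) and Cd300a (-0.40), also inhibitory, fell. Lilra6, Pira2, Pirb and Lilra5 are close relatives in 1 cluster, so their values depend on how shared reads were assigned. Scavenger and phagocytic receptors divided, with 10 higher and 12 lower of 24. Timd4, a receptor for phosphatidylserine, rose at a low level (log2 fold change 4.06, SE 0.67, adjusted p = 3.1e-11), and Mfge8, a bridging protein for the same lipid, fell (log2 fold change -1.26, SE 0.045, adjusted p = 1.3e-43). Of the Fc receptors Fcgr3 (0.33) and Fcgr2b (0.19) rose, and Fcgr4 (-0.74) and Fcgr1 (-0.30) fell.

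Complement genes moved in both directions. Cd55 had 37.5, 38.7, 38.9 and 35.5 CPM in the TRAP1 KO TCM libraries, against 10.8, 11.3 and 12.4 CPM in the WT TCM libraries. Cd55 rose, and it removes complement convertases from cell surfaces (log2 fold change 1.72, SE 0.074, adjusted p = 7.5e-38). Of 16 complement genes 8 were called higher and 4 lower. The abundant C1qa (0.34) and Cfp (0.50) (properdin) rose by less, and C3ar1 (-0.51) and C5ar1 (-0.33), receptors for C3a and C5a, fell beside C5ar2. Lysosomal genes were mostly lower by little, with 19 lower and 6 higher of 28 and a median of -0.15. Atp6v0d2 had 30.5, 34.4, 35.03 and 36.03 CPM in the TRAP1 KO TCM libraries, against 73.3, 72.8 and 69.5 CPM in the WT TCM libraries. Atp6v0d2 is a subunit of the proton pump found in macrophages and osteoclasts, and it was the only lysosomal gene to change by 2-fold (log2 fold change -1.08, SE 0.043, adjusted p = 4.1e-39). Lgmn (-0.45) fell, and Ctsc (0.42) and Ctsl (0.35) rose.

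TGF-beta receptors changed in opposite directions. Tgfbr2, the ligand-binding receptor, averaged 1182 ± 12.5 CPM in TRAP1 KO TCM and 412 ± 4.59 CPM in WT TCM (log2 fold change 1.52, SE 0.017, adjusted p = 7.7e-83), whereas its signalling partner Tgfbr1 averaged 79.02 ± 3.17 CPM in TRAP1 KO TCM and 110.4 ± 4.67 CPM in WT TCM (log2 fold change -0.48, SE 0.033, adjusted p = 2.1e-23). Of 24 genes of the pathway 13 were called higher and 2 lower. Nrros (0.31), which anchors latent TGF-beta on macrophages, rose, and Tgfbi (-0.74), a matrix protein named for its induction by TGF-beta, fell. Smad2, Smad3 and Smad7 were not called (0.03, -0.05 and -0.22). Of 25 matrix and protease genes 16 were called higher and 6 lower. Mmp9 had 159, 164, 159 and 176 CPM in the TRAP1 KO TCM libraries, against 66.1, 66.0 and 60.9 CPM in the WT TCM libraries. Mmp9 and Mmp14 (0.90) are metalloproteinases that cut collagen (log2 fold change 1.35, SE 0.040, adjusted p = 1.2e-31), and Mmp19 (0.69) rose with them. Mmp12 (-0.50), the macrophage elastase, Mmp27 (-0.88) and Thbs1 (-0.75) (thrombospondin 1) fell. Sparc, Col1a1 and Timp1 were called higher at levels under 5 CPM, with means of 1.58, 1.91 and 4.16 CPM in TRAP1 KO TCM, against 0.0174, 0.116 and 1.33 CPM in WT TCM. The fibroblast markers moved with them, with a sum of 5.39 to 7.74 CPM in the TRAP1 KO TCM libraries and 0.393 to 0.513 CPM in the WT TCM libraries; 3 of the 4 tested were called higher, and the part of fibroblasts in this was not tested. Among adhesion genes Icam1 (0.796), Sema4a (0.58) and Sema6d (1.37) rose, and the integrins Itga9 (-0.66) and Itgav (-0.33) fell.

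Lineage factors of macrophages changed in both directions. Of 27 tested 15 were called higher and 6 lower, and 12 lay within 1.2-fold. Spi1 (0.17) (PU.1) and Cebpb (0.30) rose by less than 0.5 on the log2 scale. Tfec (0.79), a relative of Mitf, and Rara (0.54) rose more, while Pparg (-0.80), Bhlhe40 (-0.67) and Cebpa (-0.26) were among the 6 that fell. Irf4 (-0.01) and Irf8 (-0.04) were not called. Csf1r, the receptor for M-CSF, averaged 2176 ± 23.7 CPM in TRAP1 KO TCM and 1818 ± 13.7 CPM in WT TCM (log2 fold change 0.26, SE 0.013, adjusted p = 6.9e-32). Among cytokine receptors Il4ra (0.72), Il21r (0.63) and Csf3r (0.57) rose, and Csf2ra (-0.48), part of the GM-CSF receptor, fell.

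Most nuclear genes of these mitochondrial lists changed little. All 30 respiratory chain genes of the nucleus had a 95% interval within 1.2-fold, and they ran from -0.16 to 0.16 on the log2 scale. Of them 2 were called higher and 5 lower, counts that ran from 1 to 4 and from 3 to 5 when a library was left out. Atp5b (-0.01, 95% interval -0.05 to 0.02), a subunit of ATP synthase, and Uqcrc1 (-0.04, 95% interval -0.10 to 0.014), of complex III, illustrate the width of the bounds. Of 20 other chaperones and proteases of mitochondria or the HSP90 family 16 lay within 1.2-fold. Of the 20, 5 were called higher and 5 lower (50.0%, beside 42.2% of all genes tested and 46.8% of protein-coding genes). Among them Hspd1 (-0.03, 95% interval -0.09 to 0.03) and Hspe1 (0.046, 95% interval -0.03 to 0.12), the chaperonins, were not called. Hspa9 (0.13, 95% interval 0.09 to 0.18), the matrix HSP70, was called higher by a small step. Clpp (0.30), a matrix protease, was the largest rise, and Hsp90b1 (-0.26), the HSP90 of the endoplasmic reticulum, the largest fall. Of 22 TCA cycle genes 18 lay within 1.2-fold, 5 were called higher and 6 lower. The 5 fell to 3 without TRAP1 KO TCM replicate 2 or any 1 of the WT TCM replicates. Cs (-0.21) (citrate synthase) and Idh3b (-0.27) fell, Dlst (0.17) rose, and Sdha, the catalytic subunit of succinate dehydrogenase, was not called, as Sdha (-0.01, 95% interval -0.05 to 0.04) shows. Mitochondrial ribosomal proteins held 56 of 77 within 1.2-fold, with 12 higher and 5 lower. The exception in size was Mrps12, of the small subunit, which averaged 11.3 ± 0.733 CPM in TRAP1 KO TCM and 23.3 ± 0.880 CPM in WT TCM (log2 fold change -1.04, SE 0.077, adjusted p = 1.0e-21).

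Transcripts of the mitochondrial genome were higher. Of 12 tested 9 were called higher and none lower, with a median of 0.23. mt-Nd4 had 688, 696, 692 and 705 CPM in the TRAP1 KO TCM libraries, against 588, 567 and 577 CPM in the WT TCM libraries. mt-Nd5 had 1289, 1278, 1272 and 1294 CPM in the TRAP1 KO TCM libraries, against 1118, 1100.5 and 1096 CPM in the WT TCM libraries. These complex I subunits were above the wild-type range in every knockout library, as was mt-Cytb, which averaged 1161 ± 22.2 CPM in TRAP1 KO TCM and 1057 ± 13.6 CPM in WT TCM. Mitochondrially encoded genes took 1.42% to 1.45% of counts in the TRAP1 KO TCM libraries and 1.25% to 1.28% in the WT TCM libraries. The regulators of mitochondrial biogenesis Tfam, Polg and Polrmt were not called (0.08, 0.01 and 0.05), and Pink1 (-0.29) fell.

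**Figure D5:**
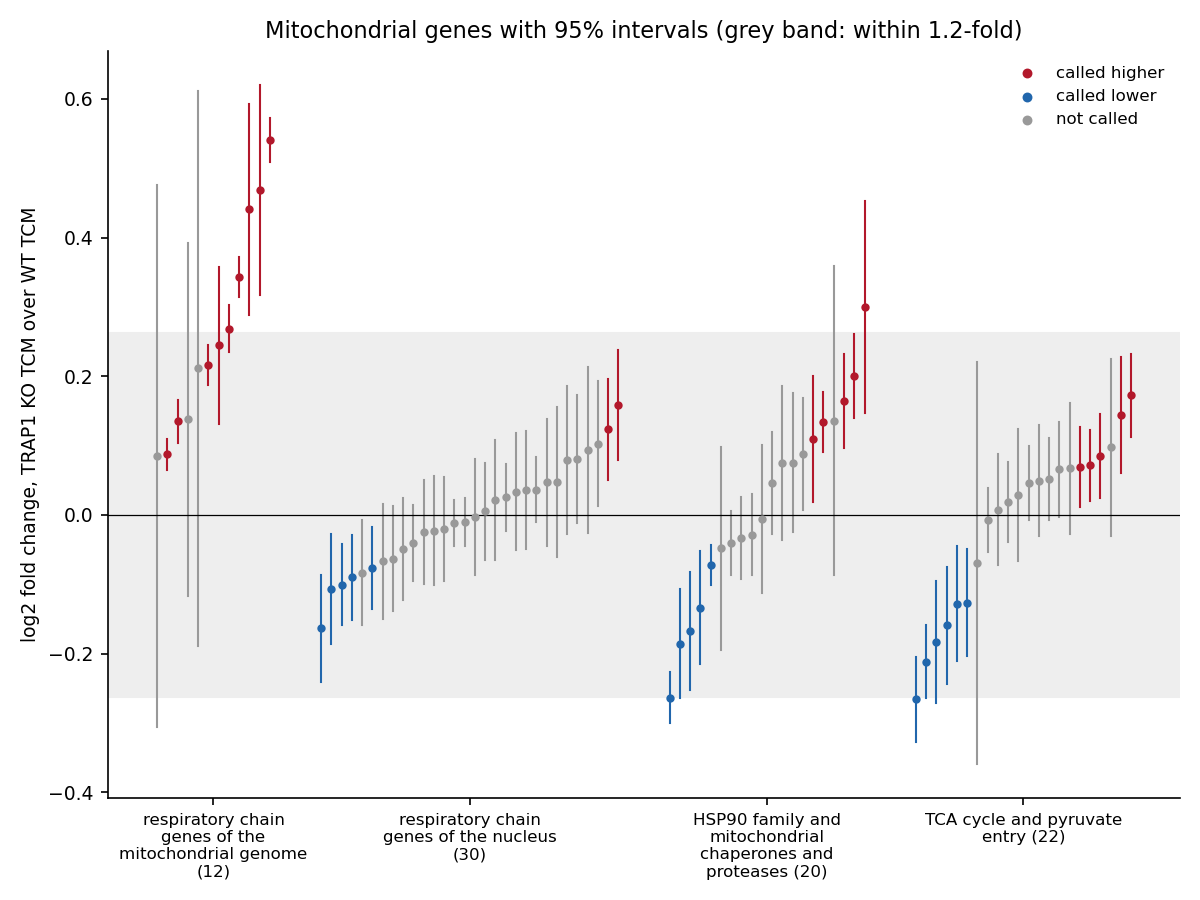
Log2 fold change with 95% interval, TRAP1 KO TCM over WT TCM, for genes of 4 mitochondrial groups (red called higher, blue called lower, grey not called); the grey band marks changes within 1.2-fold. All 30 nuclear respiratory chain genes lie within the band, whereas 9 of 12 genes of the mitochondrial genome were called higher.

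Metabolic and stress genes outside mitochondria changed in smaller groups. The list of serine synthesis and the ATF4 stress response was mostly lower, with 15 lower and 7 higher of 24 and a median of -0.26. Phgdh had 2.34, 2.13, 2.12 and 2.92 CPM in the TRAP1 KO TCM libraries, against 8.40, 6.85 and 8.05 CPM in the WT TCM libraries. Phgdh catalyses the first step of serine synthesis (log2 fold change -1.71, SE 0.16, adjusted p = 1.8e-17). Psat1 (-0.81), Mthfd2 (-0.68), Pck2 (-0.87) and Atf4 (-0.34) itself fell, and Gdf15 (0.35) and Vldlr (2.51) rose. Psph, a further gene of serine synthesis, was called higher. The list of heat shock genes and chaperones of the endoplasmic reticulum held 12 lower and 2 higher of 22. Hspa5 (-0.29) (BiP), Calr (-0.42) and Sdf2l1 (-0.55), of the endoplasmic reticulum, fell, and the inducible heat shock genes Hspa1a and Hspa1b were not called. Antioxidant genes held 14 higher and 3 lower of 27. Sod2 (0.68), the mitochondrial superoxide dismutase, Gclm (0.63) and Nfe2l2 (0.40), which encodes NRF2, rose, and Prdx2 (-0.47) fell. Glycolysis genes held 7 in each direction of 21. Slc2a1 (0.42), the glucose carrier, and Pgk1 (0.35) rose, and Aldoc (-0.85) fell. Gapdh had 16.1 to 46.8 CPM in the TRAP1 KO TCM libraries and 15.8 to 162 CPM in the WT TCM libraries, was not called, and has many processed copies in the genome, so its value is uncertain. Slc7a7, an exporter of cationic amino acids, rose (log2 fold change 1.29, SE 0.035, adjusted p = 6.3e-53), while Slc1a5 (-0.90), the glutamine carrier, fell. The iron exporter Slc40a1 (0.91) (ferroportin) and Tfrc (0.46) rose where Fth1 fell. Of the histone demethylases, Kdm6b (0.63) (JMJD3) rose, and Kdm6a (0.04) (UTX) was not called. In Polycomb complex 2, Jarid2 (0.90) rose, Ezh2 (-0.60) fell, and Eed was not called (-0.01).

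The share of strong changes was also described along the genome. Within 5 Mb of Trap1, and leaving out Trap1 and Dnase1, 18 of 44 tested genes were called (40.9%) and 0 changed by 2-fold. In windows of 5 Mb with at least 20 tested genes, the median share of genes called at 2-fold or more was 4.35% over 269 windows. The highest share was 18 of 56 genes (32.1%) on chromosome 14 between 50 and 55 Mb, with Slc7a7, Rnase6 and Ang among them. Next were 7 of 22 genes on chromosome 17 between 75 and 80 Mb and 10 of 32 on chromosome 1 between 190 and 195 Mb. On chromosome 5 between 90 and 95 Mb, 6 of 30 genes were called at 2-fold or more, among them the neighbouring chemokine genes Ppbp, Cxcl1, Cxcl2, Cxcl3 and Cxcl9. Processed pseudogenes were called at a lower rate than protein-coding genes (15.8% of 688, against 46.8% of 11683). At 2-fold or more 40 of them were higher and 12 lower (7.56%, beside 5.58% of all genes tested). That share was 7.44% in antisense transcripts and 9.91% in long intergenic noncoding RNAs.

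For some genes the levels of WT naive cells give a scale. WT TCM is the control here and also the treated group of the wild-type comparison with WT naive, so the pair shares libraries and only the levels are given. Clec4n averaged 398 ± 7.33 CPM in TRAP1 KO TCM, 87.9 ± 3.87 CPM in WT TCM and 3.97 ± 0.520 CPM in WT naive. F13a1 averaged 212 ± 5.33 CPM in TRAP1 KO TCM, 93.9 ± 1.88 CPM in WT TCM and 3.85 ± 0.246 CPM in WT naive. Cxcl2 averaged 45.5 ± 1.49 CPM in TRAP1 KO TCM, 12.8 ± 0.559 CPM in WT TCM and 2.41 ± 0.762 CPM in WT naive. The highest of the 3 group means of each of these genes was in TRAP1 KO TCM and the lowest in WT naive. Cd74 averaged 200.3 ± 6.87 CPM in TRAP1 KO TCM, 111 ± 3.54 CPM in WT TCM and 262 ± 3.73 CPM in WT naive. Cdkn1a averaged 609 ± 9.23 CPM in TRAP1 KO TCM, 323 ± 4.77 CPM in WT TCM and 521 ± 6.21 CPM in WT naive. Here the mean of WT TCM was the lowest of the groups. Ccl5 averaged 166 ± 3.76 CPM in TRAP1 KO TCM, 662 ± 23.1 CPM in WT TCM and 998 ± 12.98 CPM in WT naive. Isg15 averaged 110.1 ± 2.05 CPM in TRAP1 KO TCM, 146 ± 5.29 CPM in WT TCM and 201 ± 4.92 CPM in WT naive. Fabp5 averaged 248 ± 13.05 CPM in TRAP1 KO TCM, 488 ± 25.03 CPM in WT TCM and 682 ± 14.5 CPM in WT naive. For these genes the order was the reverse of the first set, with the highest mean in WT naive and the lowest in TRAP1 KO TCM. Mki67 averaged 31.6 ± 1.24 CPM in TRAP1 KO TCM, 81.0 ± 2.13 CPM in WT TCM and 68.8 ± 4.03 CPM in WT naive. Fads2 averaged 5.65 ± 0.452 CPM in TRAP1 KO TCM, 27.8 ± 1.17 CPM in WT TCM and 9.37 ± 0.710 CPM in WT naive. Apoe averaged 2211 ± 51.4 CPM in TRAP1 KO TCM, 9949.9 ± 97.6 CPM in WT TCM and 6364 ± 61.5 CPM in WT naive. In these the mean of WT TCM was the highest and that of TRAP1 KO TCM the lowest.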

How the data were processed

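RNA of bone marrow-derived macrophages was sequenced after removal of ribosomal RNA, per the labels' protocols. The authors deposited 1 table per library with whole-number counts for 54532 Ensembl gene identifiers, used here as raw counts. Mouse build mm10 (GRCm38) and the tools Bowtie2, HISAT, RSEM and StringTie are listed in the submitters' processing notes; versions, roles, annotation, strand setting and the handling of shared reads were not given in the sources used here. Symbols and positions came from GENCODE M21, which held 54495 of the identifiers. Totals of the 7 libraries ran from 15361604 to 20228057, and replicate libraries of a group differed by more than sampling noise.

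Counts of TRAP1 KO TCM (n = 4), WT TCM (n = 3) and WT naive (n = 3) entered 1 robust quasi-likelihood fit of edgeR (4.0.16, R 4.3.3). Genes were kept by filterByExpr (minimum 10 counts), totals were scaled by TMM, and p-values were adjusted over all genes tested by Benjamini and Hochberg's method; calls had an adjusted p under 0.05. The test against 1.2-fold was edgeR's glmTreat, and 95% intervals came from the fitted SE. CPM are edgeR's counts scaled to a common TMM-adjusted library total. The fit was checked on simulated data. Counting intervals and floors cover counting error only.

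The 51 gene lists, 13 marker lists and the comparison itself were chosen with earlier results of these data known, so no list is independent evidence, and lists are described by counts and medians alone. Named genes were Trap1, Kdm6b, Arg1, Apoe and Nnt, among called genes averaging 10 CPM or more with groups that did not overlap and no predicted or clone name the 12 with the largest fold change and the 8 with the largest CPM difference in each direction, and for each list up to 4 called members with the smallest adjusted p and those against the list's majority. Not every gene the rule selects is reported here. Nnt was not called. Other genes were named for their role or as exceptions after their values were seen. Same-numbered libraries of the groups did not deviate together (correlations -0.013, -0.030 and -0.023), so numbers were not used as pairs. Alternatives were DESeq2 (1.42.0), other scalings and filters, other sets of libraries, a replicate block and leaving out each library. Promoters are RefSeq windows of GRCm38.p6, without chromosome 18.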

Additional observations from a re-analysis of the deposited data

Results flagged for a closer look

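In the 4 TRAP1 KO TCM libraries, 1 library stood apart from the other 3 for 19 of 294 named genes (6.46%), by Dixon's test at its 95% critical value for 4 values. Chance flags about 1 in 20 groups, and the 3 libraries of WT TCM are too few for the test. The library that stood apart was the highest of the 4 for Batf3 (0.722 CPM in replicate 3), Bhlhe40 (4.40 CPM in replicate 2), C5ar2 (4.18 CPM in replicate 3), Cd14 (1286 CPM in replicate 4), Clec10a (59.5 CPM in replicate 2), Gapdh (46.8 CPM in replicate 2), Mmp12 (153 CPM in replicate 4), Slc7a1 (53.9 CPM in replicate 2) and Spp1 (3072 CPM in replicate 4). It was the lowest for Cxcl16 (228 CPM in replicate 2), Hif1a (129.9 CPM in replicate 2), Hsp90b1 (398 CPM in replicate 1), Ighm (13.8 CPM in replicate 1), Irf4 (2.22 CPM in replicate 3), Itga9 (37.4 CPM in replicate 1), Itgax (13.01 CPM in replicate 1), Pla2g7 (254 CPM in replicate 1), Smc2 (27.7 CPM in replicate 1) and Trap1 (0 CPM in replicate 4). In Gapdh, Cxcl16 and Irf4, none of them called, the groups overlapped, and in the other genes of this set that library still lay on the same side of all WT TCM libraries. For Trap1 the value of 0 is a library with 0 counts beside libraries with 1 count each. The causes were not tested.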

How the results depend on the processing

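Calls moved little between settings. Genes called higher and lower numbered 2817 and 3009 with the 7 libraries alone, 2759 and 3013 with all 16, 2841 and 3061 with upper-quartile scaling, 3165 and 2808 with library totals alone, 2849 and 2777 without the count filter and 2486 and 2615 with DESeq2. Leaving out a library gave 2604 to 2832 higher and 2682 to 2823 lower, 367 to 436 and 382 to 395 at 2-fold or more, 803 to 832 and 948 to 980 past 1.2-fold, 1751 to 1811 past 1.2-fold in all, and 4922 to 5201 within 1.2-fold. Trap1 ranged from -10.72 to -10.22 on the log2 scale. With a minimum of 50 counts, genes at 2-fold or more numbered 181 higher and 223 lower, from a smaller set of 11094 genes tested. Of the 5944 genes called, 84.9% to 97.5% were called in the same direction under each alternative and 0 in the opposite one. No named gene reversed. 5 named genes crossed the threshold under an alternative, which were Ciita, E2f1, Gbp7, Insig2 and Rel.

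The replicate numbers do not pair the libraries. With the replicate number as a block, 2791 genes were called higher and 2786 lower, and no named gene changed its call.

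Limits: library origin, strain and the handling of shared reads are unknown, WT TCM has 3 libraries, and genes of few counts have wide intervals, so a missing call there does not show the absence of a change.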

Other observations

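Further groups held calls in both directions, some of them mostly in 1 direction. Of 80 cytosolic ribosomal protein genes 33 were called lower and 9 higher. The changes were small, with a median of -0.06 and 62 genes within 1.2-fold. Rpl29 had 0.556, 0.841, 0.877 and 0.730 CPM in the TRAP1 KO TCM libraries, against 181, 172 and 182 CPM in the WT TCM libraries. Rpl29 was the exception in size (log2 fold change -7.87, SE 0.17, adjusted p = 4.2e-92), and because ribosomal protein genes have many processed copies its value is uncertain. Of 18 hypoxia-responsive genes 7 were called higher and 3 lower. Hif1a (0.34) and P4ha2 (0.84) were higher, and Vegfa (-0.23) and Pdk1 (-0.26) lower. Of 18 angiogenic and coagulation genes 10 were called higher and 5 lower, and Plau, the urokinase, averaged 694 ± 6.02 CPM in TRAP1 KO TCM and 397 ± 3.26 CPM in WT TCM (log2 fold change 0.81, SE 0.018, adjusted p = 2.2e-59). Of 28 interleukins, growth factors and receptors 15 were called higher and 5 lower, and of 19 checkpoint ligands and costimulators 8 and 7.

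Among mitochondrial carriers of the SLC25 family 6 of 41 were called higher and 11 lower (41.5%, beside 42.2% of all genes tested). The 6 fell to 3 without WT TCM replicate 2 or 3 or TRAP1 KO TCM replicate 4. Slc25a20 (-0.78), the carnitine-acylcarnitine carrier, fell furthest. Of 20 genes of mitochondrial dynamics and mitophagy 17 lay within 1.2-fold. Of 23 oxoglutarate-dependent enzymes 10 were called higher and 4 lower, and of 11 Polycomb genes 2 and 5. Of 23 amino acid transporters 6 were called higher and 12 lower, of 20 genes of NAD metabolism 6 and 6, of 18 arginine and polyamine enzymes 4 and 8, of 15 iron genes 5 and 6, of 26 Toll-like receptor and inflammasome genes 7 and 8, and of 29 adhesion genes 11 and 10. Of 19 genes of MYC and nucleolar growth 7 were called higher and 5 lower, and the 7 fell to 4 without WT TCM replicate 3.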
